A study of Mus musculus with 4 samples.

Results

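The genes described here set how much active Ras a cell holds. They were measured in mast cells grown from mouse bone marrow, with and without the MAP kinase phosphatase Pac1. They are the Ras exchange factors Sos1 and Sos2, the Ras GTPase-activating proteins (RasGAPs) Rasa1 and Rasa2, the Sprouty genes Spry1 and Spry2, the Spred genes Spred1 and Spred2, and the adaptor genes Dok1 and Dok2. A probe set was taken as a member where the platform annotation gives it 1 of these 10 symbols and no other symbol. This found all 10 genes, of 12393 with a probe set of their own on the array, through 18 of its 22626 probe sets. Sos2, Rasa2, Spry1, Dok1 and Dok2 had 1 probe set each, Spry2 and Spred2 had 2 each, and Sos1, Rasa1 and Spred1 had 3 each.

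Total RNA came from 2 Pac1-/- cultures, which lack the phosphatase encoded by Dusp2, and 2 wild-type (Pac1+/+) cultures, with 1 Affymetrix 430A array per culture. Marrow of mice aged 8 to 12 weeks was grown for 4 to 6 weeks in 5 ng/ml interleukin-3, and all 4 cultures were loaded with 100 ng/ml IgE against dinitrophenyl for 18 h and stimulated for 2 h with DNP-HSA antigen at 20 ng/ml. Crosslinking of the IgE receptor FceRI is therefore shared by both genotypes, and no resting culture is among the arrays. How many mice gave marrow to a culture and how the Pac1 allele was made are not given in the sources used here.

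Ras is a small GTPase that signals while it holds GTP. Sos proteins, brought to the membrane by the adaptor Grb2, load it with GTP after the IgE receptor or Kit is engaged, while RasGAPs speed the hydrolysis of GTP and end the signal. Sprouty and Spred proteins are feedback inhibitors of the route from Ras through Raf to the ERK MAP kinases, and Pac1 removes phosphate from the MAP kinases themselves. Dok proteins are adaptors that bind the RasGAP encoded by Rasa1 and restrain Ras in blood cells.

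By the labels' protocol over 98% of the cultured cells stained for Kit and FceRI. Mast cell markers were detected, though some probe sets varied widely between arrays. Of 14 probe sets for 10 mast cell genes, 11 read at least 100 on every array, and the summed signal of the list was 58311 and 45395 on the Pac1-/- arrays and 55042 and 51279 on the wild-type arrays. Ms4a2, the beta chain of FceRI, read 41.9 and 1502 on the Pac1-/- arrays and 143 and 3261 on the wild-type arrays, so that both replicate 2 arrays were high. On Pac1-/- replicate 2 the brighter Tpsb2 probe set read 476, against 5838 to 7259 on the other arrays, and the Gata2 probe set 1428816_a_at 159, against 748 to 847. The second Gata2 probe set read between 2155 and 2825 on all 4. One Kit probe set, 1415900_a_at, read 1624 on wild-type replicate 2 and 84.8 or less on the others, while the other Kit probe set read between 1521 and 3672.

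Among markers of other cell types, the 7 lymphocyte and 7 stromal probe sets read below 100 on every array. So did 5 of 7 neutrophil probe sets, and the other 2 reached 107 (S100a9) and 124 (Ngp). The basophil gene Mcpt8 read 88.5 and 128 on the Pac1-/- arrays and 82.1 and 98.1 on the wild-type arrays. In the erythroid and megakaryocyte list Klf1 and Pf4 read below 100, while the integrin gene Itga2b, which mast cells may also express, read 1721 and 424 on the Pac1-/- arrays and 2037 and 3169.6 on the wild-type arrays. The macrophage list is given below.

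The targeted gene Dusp2 has 1 probe set, which read 109.3 and 75.5 on Pac1-/- replicates 1 and 2 and 167 and 90.7 on wild-type replicates 1 and 2. The genotypes differed by -0.44 ± 0.51 on the log2 scale (SE of limma's fit, 2 arrays each; limma adjusted p = 0.888), or by 0.0030 without wild-type replicate 1. Where its probes lie relative to the deleted part is not given, so Dusp2 does not check the genotype labels. Pac1-/- replicate 2 stood apart in the deposited values, with a median intensity of 24.5 against 40.6 on Pac1-/- replicate 1 and 49.3 and 48 on the wild-type arrays.

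Intensities here are quantile normalised unless called deposited, and a probe set was tested where they averaged at least 100 over the 4 arrays, which 7770 probe sets did. Values under 16 were set to 16 before log2 was taken. All differences are log2, Pac1-/- minus wild-type, with the standard error of limma's fit. Each level belongs to its own probe set, and levels of different probe sets are not compared. Of the 18 member probe sets, 11 were tested and 7 were too dim. The 11 belong to 9 genes, since none of the 3 Sos1 probe sets reached the minimum.

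No member passed the test of the genotype difference after adjustment. By limma with Benjamini-Hochberg adjustment over all tested probe sets, 0 of the 11 had an adjusted p under 0.05 (0% of all tested probe sets did), and their adjusted p lay between 0.866 and 0.999. At the unadjusted level 1 of the 11 passed, the Sos2 probe set, which was higher, against 3.38% of all tested probe sets in either direction and 2.25% higher. Of the 11, 7 were higher and 4 lower in Pac1-/- cells. Their median log2 difference was 0.30. Over all tested probe sets 52.8% were higher and the median was 0.06. The genotypes did not overlap in 4 tested member probe sets, those of Sos2, Dok2 and 2 of Rasa1. Of all tested probe sets 37.7% had this property. Of the 4 member probe sets, 3 lay higher in Pac1-/- cells (24.3% of all tested probe sets) and 1 lower (13.4%).

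**Figure D1:**
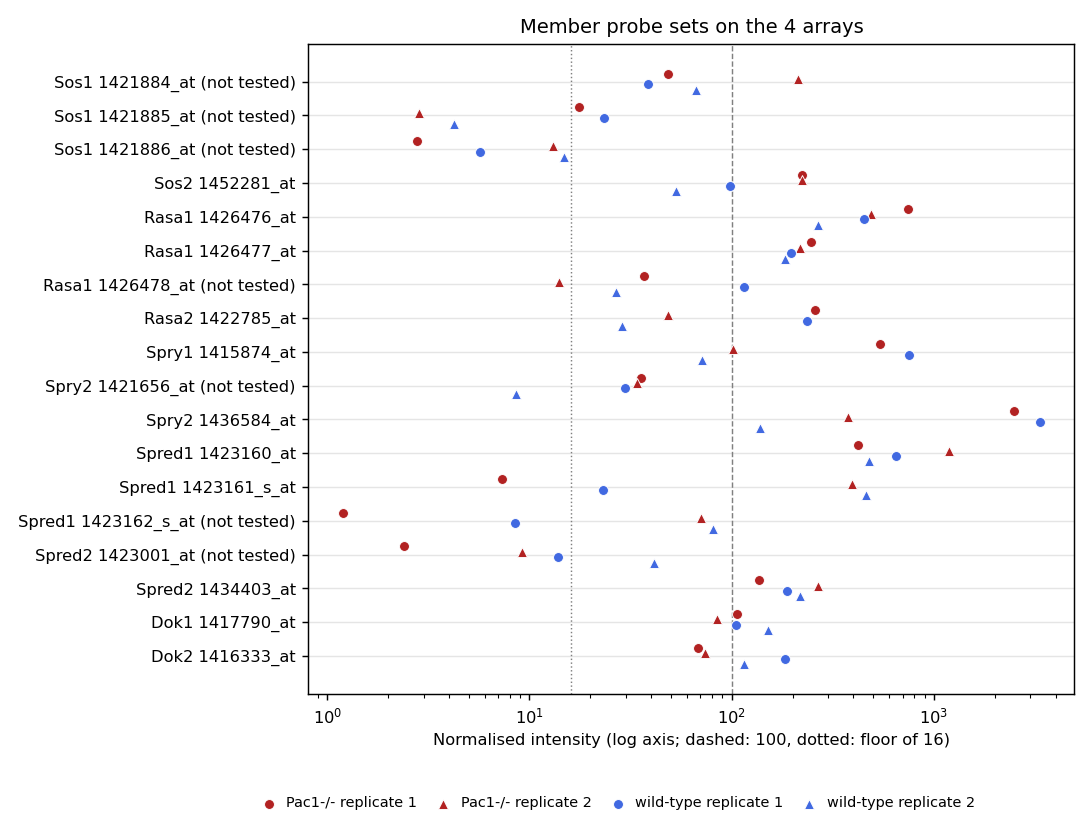
Normalised intensity of the 18 member probe sets on each array, on a log axis. Red marks are Pac1-/- and blue marks wild-type cultures, circles replicate 1 and triangles replicate 2; the dashed line is the intensity of 100 and the dotted line the floor of 16. Both red marks lie right of both blue marks for Sos2 and left of them for Dok2, while for Spry1, the brighter Spry2 probe set and Rasa2 both circles lie right of both triangles.

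Sos2, which encodes a close relative of Sos1, was the member with the lowest p. Its probe set read 223 and 223 on Pac1-/- replicates 1 and 2, against 98.0 and 52.9 on wild-type replicates 1 and 2. Both Pac1-/- arrays were above both wild-type arrays, and the Pac1-/- arrays were closer to each other than the wild-type arrays were. Log2 intensities averaged 7.80 ± 0.0032 over the Pac1-/- arrays and 6.17 ± 0.63 over the wild-type arrays (SD, n = 2 each). The log2 difference was 1.63 ± 0.47, a fold of 3.10, with a 95% confidence interval of 0.28 to 2.98 (limma unadjusted p = 0.0293, adjusted p = 0.866). Taken within replicate number 1 it was 1.18, and within number 2 it was 2.08. Both wild-type values are below 100, where sizes are approximate, and the mean of 149 by which Sos2 entered the test rested on the Pac1-/- arrays. Its unadjusted p was 0.122 without wild-type replicate 2, 0.105 without Pac1-/- replicate 1 and 0.105 without Pac1-/- replicate 2, and 0.0356 without wild-type replicate 1.

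Within either replicate number the Pac1-/- array also had the higher ratio of 3' to 5' signal in the beta-actin controls, with ratios of 293 and 54.8 on Pac1-/- replicates 1 and 2 and 109 and 1.58 on wild-type replicates 1 and 2. For GAPDH these ratios were 1.36 and 191 on the Pac1-/- arrays and 0.80 and 0.84 on the wild-type arrays. The part of this in the Sos2 difference, or in any other member's, was not tested.

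The promoter window of Sos2 is shown because Sos2 was the single member past the unadjusted test. RefSeq (GRCm38.p6) gives it as chr12:69681803-69682102 on the minus strand, from 250 bases before the annotated start to 50 after. It is 82.7% G and C, against a median of 52.7% over 32851 such windows. The windows found for other members were also above that median, from 57.0% for Spred2 to 72.7% for Rasa2. Capitals mark GC boxes (GGGCGG, either strand), of which the Sos2 window holds 3, while 35.7% of all windows hold at least 1.
Sos2: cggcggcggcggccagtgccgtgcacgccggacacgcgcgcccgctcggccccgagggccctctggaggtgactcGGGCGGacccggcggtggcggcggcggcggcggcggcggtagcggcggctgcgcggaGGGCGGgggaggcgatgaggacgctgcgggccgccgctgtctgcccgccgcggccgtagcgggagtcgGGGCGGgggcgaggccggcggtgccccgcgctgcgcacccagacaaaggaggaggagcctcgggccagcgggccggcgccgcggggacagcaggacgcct

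The 3 tested probe sets whose pattern over the 4 arrays was closest to that of Sos2 belonged to the ubiquitin ligase gene Rffl, the chromatin remodelling ATPase gene Smarca2 and the bZIP factor gene Crebzf. Likeness was the root mean square difference of log2 values, each probe set centred on its own mean, and was 0.049 for Rffl, 0.053 for Smarca2 and 0.096 for Crebzf. Rffl read 313 and 309 on the Pac1-/- arrays, against 131 and 68.1 on the wild-type arrays. Smarca2 read 145 and 161 on the Pac1-/- arrays, against 68.5 and 36.1 on the wild-type arrays. Crebzf read 192 and 163 on the Pac1-/- arrays, against 84.0 and 42.1 on the wild-type arrays. With 4 arrays many probe sets can share such a pattern, and this is a description only.

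Sos1, the exchange factor that most cells rely on, fell under the minimum of 100 with all 3 probe sets. Its brightest probe set, 1421884_at, read 48.3 and 213 on Pac1-/- replicates 1 and 2, against 38.7 and 66.8 on wild-type replicates 1 and 2. The genotypes overlapped, and the replicate 2 array lay above the replicate 1 array in both genotypes. The log2 difference was 1.00, and -0.075 without Pac1-/- replicate 2. With no intensity minimum it was tested and did not pass (limma unadjusted p = 0.418, adjusted p = 0.886), nor did it with median centring, where each array is scaled to a common median and the difference was 1.35 (limma unadjusted p = 0.263, adjusted p = 0.603). Under median centring all tested probe sets had a median difference of 0.69, against 0.06 with quantile normalisation. Probe set 1421885_at read 17.5 and 2.9 on the Pac1-/- arrays and 23.3 and 4.2 on the wild-type arrays. Probe set 1421886_at read below 16 on all 4 arrays, between 2.8 and 14.9. These 2 probe sets were near or under the floor, and a difference was not detectable in them.

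Rasa1 encodes the RasGAP to which Dok proteins bind. Its probe set 1426476_at read 743 and 489 on Pac1-/- replicates 1 and 2, against 452 and 269 on wild-type replicates 1 and 2. Its probe set 1426477_at read 247 and 218 on the Pac1-/- arrays, against 196 and 183 on the wild-type arrays. In both probe sets the Pac1-/- arrays lay above the wild-type arrays without overlap. The log2 differences were 0.79 ± 0.49 (adjusted p = 0.866 by limma) and 0.30 ± 0.35 (adjusted p = 0.889 by limma), and neither passed. The dim probe set 1426478_at went the other way, with 37.0 and 14.0 on the Pac1-/- arrays and 115 and 26.8 on the wild-type arrays, where the genotypes overlapped. Averaging the 3 Rasa1 probe sets gave a log2 difference of -0.034, so the direction for the gene depends on which of them is read.

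Rasa2, a further RasGAP, differed far more between the replicate numbers than between the genotypes. Its probe set read 257 and 48.2 on Pac1-/- replicates 1 and 2, against 236 and 28.7 on wild-type replicates 1 and 2. The log2 difference between genotypes was 0.43 ± 1.47 (limma adjusted p = 0.979), with a 95% confidence interval of -3.77 to 4.64, and it was -0.013 on the values as deposited.

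**Figure D2:**
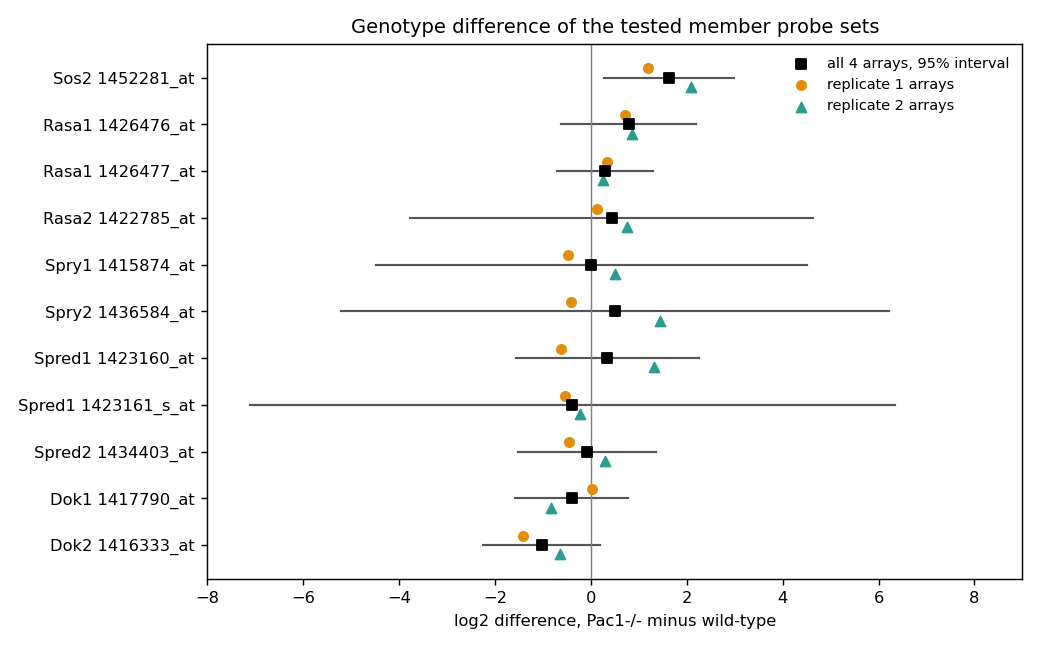
Log2 difference, Pac1-/- minus wild-type, of the 11 tested member probe sets. Squares are the fit over all 4 arrays with its 95% confidence interval, circles the replicate 1 arrays alone and triangles the replicate 2 arrays alone. The interval of Sos2 lies above 0, those of the other 10 include 0, and the intervals of Rasa2, Spry1, the Spry2 probe set and Spred1 1423161_s_at are the widest.

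The Sprouty genes, which growth factor and receptor signals induce in many cells, showed the same split. Spry1 read 543 and 100.9 on Pac1-/- replicates 1 and 2, against 752 and 71.5 on wild-type replicates 1 and 2. The brighter Spry2 probe set, 1436584_at, read 2494 and 374 on the Pac1-/- arrays, against 3329 and 138 on the wild-type arrays. In both genes either replicate 1 array was well above either replicate 2 array, and the genotypes overlapped.

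The genotype difference of Spry1 was 0.01 ± 1.57 (limma adjusted p = 0.999) and became -0.26 on the values as deposited. It was -0.47 within replicate number 1 and 0.50 within number 2. For Spry2 it was 0.51 ± 1.99 (limma adjusted p = 0.982), with -0.42 within replicate number 1 and 1.44 within number 2. The fit takes no account of the replicate numbers, so their split widens the Spry2 interval of -5.20 to 6.23. That interval leaves a difference of either sign possible. With the replicate number added to the fit, Spry2 did not pass either (limma unadjusted p = 0.405, adjusted p = 0.738). The second Spry2 probe set, 1421656_at, was too dim to test, at 35.5 and 33.9 on the Pac1-/- arrays and 29.8 and 8.6 on the wild-type arrays.

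Rasa2, Spry1 and Spry2 shared a pattern that the genotype labels do not describe. On the log2 scale, replicate 2 minus replicate 1 was -2.42 in Pac1-/- and -3.04 in wild-type cells for Rasa2. It was -2.43 in Pac1-/- and -3.39 in wild-type cells for Spry1. For Spry2 it was -2.74 in Pac1-/- and -4.60 in wild-type cells. These 3 were the tested member probe sets in which both replicate 1 arrays lay at least 2-fold above both replicate 2 arrays, which 7.14% of all tested probe sets did. The opposite pattern, found in 7.12%, was shown by 1 member probe set, that of Spred1 described below. The pattern was seen after the values were known, and it carries no test.

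Other differences ran with the replicate numbers. On replicate 2 the Y-linked gene Eif2s3y read 2.1 in Pac1-/- and 0.95 in wild-type cells, against 275 in Pac1-/- and 219 in wild-type cells on replicate 1. The brightest Xist probe set read 984 in Pac1-/- and 2952 in wild-type cells on replicate 2, against 41.7 in Pac1-/- and 47.7 in wild-type cells on replicate 1. The summed signal of the macrophage list (6 of 7 genes measured by 8 probe sets) was 663 in Pac1-/- and 649 in wild-type cells on replicate 2, against 6087 in Pac1-/- and 7962 in wild-type cells on replicate 1. On replicate 1 nearly all of it was Cd68, a lysosomal protein gene that mast cells may also express, at 121 in Pac1-/- and 118 in wild-type cells on replicate 2, against 5638 in Pac1-/- and 7512 in wild-type cells on replicate 1. Adgre1, the F4/80 antigen gene, read 222 and 217 on the Pac1-/- arrays and 248 and 250.5 on the wild-type arrays, and the lysozyme gene Lyz2 read 122 and 136 on the Pac1-/- arrays and 73.3 and 56.8 on the wild-type arrays. The macrophage receptor Csf1r had 3 probe sets at 102 or below on every array, the mannose receptor gene Mrc1 read at most 31.3 and the integrin gene Itgam at most 17. In bulk RNA, fewer cells of a type and less RNA per cell cannot be told apart. The part of sex, of cell composition or of the replicate number in the Sprouty and Rasa2 values was not tested.

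**Figure D3:**
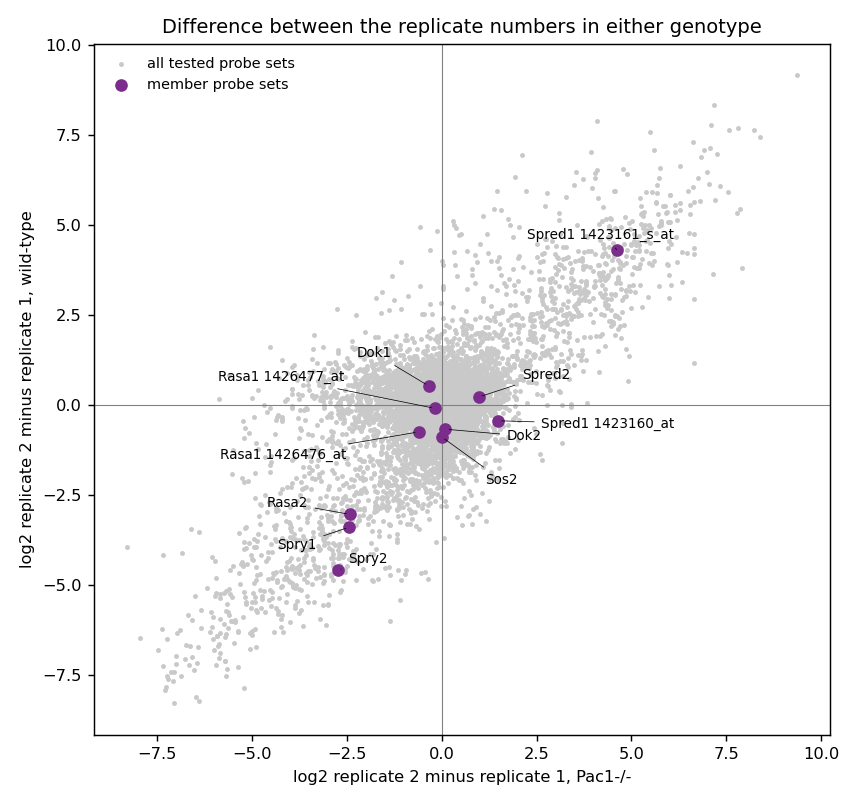
Log2 difference, replicate 2 minus replicate 1, in Pac1-/- cells (horizontal) and in wild-type cells (vertical). Grey points are the 7770 tested probe sets and purple points the 11 member probe sets. Rasa2, Spry1 and Spry2 lie at the lower left, Spred1 1423161_s_at at 4.62 and 4.31 at the upper right, and the other members within 1.5 of 0 on both axes.

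The promoter windows of these 3 genes are shown to set side by side genes whose signals split alike. RefSeq (GRCm38.p6) gives them as chr9:96631454-96631753, minus strand, for Rasa2, chr3:37639697-37639996, plus strand, for Spry1 and chr14:105896770-105897069, minus strand, for Spry2. Each runs 5' to 3' over the same span around its start as the Sos2 window, and capitals again mark GC boxes.
Rasa2: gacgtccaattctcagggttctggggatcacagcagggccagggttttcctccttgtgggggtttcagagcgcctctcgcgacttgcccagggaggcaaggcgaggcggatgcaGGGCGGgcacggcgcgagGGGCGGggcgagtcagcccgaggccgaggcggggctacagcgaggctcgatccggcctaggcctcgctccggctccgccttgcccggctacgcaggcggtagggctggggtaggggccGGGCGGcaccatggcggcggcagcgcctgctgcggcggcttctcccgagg
Spry1: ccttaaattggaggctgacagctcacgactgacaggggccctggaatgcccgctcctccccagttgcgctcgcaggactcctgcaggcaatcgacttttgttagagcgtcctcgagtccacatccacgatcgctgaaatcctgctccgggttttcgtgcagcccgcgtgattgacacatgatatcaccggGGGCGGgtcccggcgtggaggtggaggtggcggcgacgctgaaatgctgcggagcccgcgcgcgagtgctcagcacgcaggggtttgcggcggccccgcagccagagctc
Spry2: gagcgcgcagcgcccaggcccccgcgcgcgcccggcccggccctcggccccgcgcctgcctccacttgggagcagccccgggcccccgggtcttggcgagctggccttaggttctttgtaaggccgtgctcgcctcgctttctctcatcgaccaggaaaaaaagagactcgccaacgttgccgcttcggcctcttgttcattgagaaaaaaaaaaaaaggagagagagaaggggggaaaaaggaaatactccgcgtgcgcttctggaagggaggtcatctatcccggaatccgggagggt
The Rasa2 window holds 3 GC boxes, the Spry1 window 1 and the Spry2 window none. Searched on both strands, none of these 3 windows nor that of Sos2 holds the AP-1 motif TGANTCA (7.81% of all windows do), the CRE core TGACG (20.8%), the GATA motif AGATAA (11.2%), the E-box CACGTG (7.15%) or the Ets motif CCGGAAG (8.86%). None of the motifs searched was in all 3 windows. RefSeq windows were found for 8 of the 10 members, and Dok1 and Dok2 were not among them. Of the other 4, the Rasa1 window holds 1 Ets motif and 2 GC boxes, the Spred1 window 3 GC boxes and the Spred2 window 1 CRE core and 1 GC box, while the Sos1 window holds none of these motifs.

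Spred1 encodes a membrane-bound relative of Sprouty that works with the RasGAP neurofibromin. Its probe set 1423160_at read 421 and 1180.3 on Pac1-/- replicates 1 and 2, against 647 and 477 on wild-type replicates 1 and 2. Pac1-/- replicate 2 was the high array and the genotypes overlapped. The log2 difference was 0.34 ± 0.66 (limma adjusted p = 0.944), with -0.62 within replicate number 1 and 1.31 within number 2.

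A second Spred1 probe set, 1423161_s_at, gave another picture. It read 7.3 and 392 on the Pac1-/- arrays, against 23.2 and 460 on the wild-type arrays, so that both replicate 2 arrays were high and both replicate 1 arrays near or under the floor. The genotype difference was -0.38 ± 2.35 (limma adjusted p = 0.992), and 0.13 with median centring, where the median over all tested probe sets was 0.69. The untested 1423162_s_at followed the same order, at 1.2 and 70.4 on the Pac1-/- arrays and 8.5 and 81.3 on the wild-type arrays. The log2 difference of replicate 2 minus replicate 1 was 4.62 in Pac1-/- and 4.31 in wild-type cells for 1423161_s_at, against 1.49 in Pac1-/- and -0.44 in wild-type cells for 1423160_at, so the probe sets disagree on how Spred1 varied between cultures. The ending s_at marks probe sets that may bind several transcripts.

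Spred2 was measured by 1 bright and 1 dim probe set. The bright one, 1434403_at, read 136 and 267 on Pac1-/- replicates 1 and 2, against 187 and 217 on wild-type replicates 1 and 2. Both wild-type values lay between the Pac1-/- values. The log2 difference was -0.08 ± 0.50 (limma adjusted p = 0.992, interval -1.51 to 1.35), and 0.54 with median centring. Under that scaling the median over all tested probe sets was 0.69. The dim one, 1423001_at, read 2.4 and 9.2 on the Pac1-/- arrays, against 13.9 and 41.3 on the wild-type arrays, with 3 of 4 values below the floor.

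Dok2 had the most negative difference among the tested members. It encodes an adaptor found mainly in blood cells. Its probe set read 68.5 and 73.6 on Pac1-/- replicates 1 and 2, against 183 and 115 on wild-type replicates 1 and 2, and the genotypes did not overlap. Both Pac1-/- values are below 100, and the mean of 110 by which Dok2 entered the test rested on the wild-type arrays. Log2 intensities averaged 6.15 ± 0.073 over the Pac1-/- arrays and 7.18 ± 0.48 over the wild-type arrays (SD, n = 2 each). The log2 difference of -1.03 ± 0.42, with an interval of -2.24 to 0.18, did not pass (limma unadjusted p = 0.077, adjusted p = 0.866). It was -1.42 within replicate number 1 and -0.64 within number 2. On the values as deposited it was -1.35 with an unadjusted p of 0.0487 by limma, and it was negative under every alternative in which it was tested.

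Dok1, the partner of Dok2 in restraining Ras, had a smaller difference. It read 107 and 84.5 on Pac1-/- replicates 1 and 2, against 104 and 150.3 on wild-type replicates 1 and 2. The replicate 1 arrays were nearly equal and the genotypes overlapped. The log2 difference was -0.40 ± 0.41 (limma adjusted p = 0.878), with 0.03 within replicate number 1 and -0.83 within number 2.

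The direction of the genotype difference was the same within either replicate number in 6 of the 11 tested member probe sets, against 61.3% of all tested probe sets. The 6 were those of Sos2, Rasa2, 2 of Rasa1, Dok2 and Spred1 1423161_s_at. The 5 others were those of Spry1, Spry2, Spred1 1423160_at, Spred2 and Dok1. Without Pac1-/- replicate 2, the array that stood apart, the difference of Sos2 was 1.63, that of Rasa1 1426476_at 1.09, that of Dok2 -1.08, that of Dok1 -0.23 and that of Spred1 1423160_at -0.40. These values also take in part of what separates replicate 1 from replicate 2. With each array centred on its median, all tested probe sets had a median difference of 0.69 and the tested members one of 0.86, and Sos2 was at 2.07.

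The rest of the Ras pathway was read from a list of 42 genes, of which 32 were measured by 52 probe sets. Of these, 15 probe sets for 11 genes were tested, 7 higher and 8 lower in Pac1-/- cells. The median log2 difference was -0.049. Over all tested probe sets 52.8% were higher and the median was 0.06. By limma 0 of 15 passed at the adjusted or the unadjusted level, against 0% and 3.38% of all tested probe sets. The genotypes did not overlap in 5 that lay higher and 1 that lay lower, against 24.3% and 13.4% of all tested probe sets.

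Among the Ras genes themselves, 4 probe sets were tested. The Nras probe set with the lowest p, 1454060_a_at, read 162 and 211 on the Pac1-/- arrays, against 141 and 120 on the wild-type arrays (0.50 ± 0.38), while the other 2 Nras probe sets had differences of -0.82 and -0.29. Rras2, which encodes a relative of Ras, read 2170.2 and 52.9 on Pac1-/- replicates 1 and 2, against 3261 and 20.9 on wild-type replicates 1 and 2. It was the 1 tested probe set of 15 in which both replicate 1 arrays lay at least 2-fold above both replicate 2 arrays. Of all tested probe sets 7.14% did so, among them those of Spry1, Spry2 and Rasa2. The other Rras2 probe set, 1448689_at, was too dim to test. Both its replicate 1 arrays lay above both replicate 2 arrays, but not by 2-fold. It read 47.9 and 39.2 on the Pac1-/- arrays, against 77.8 and 14.8 on the wild-type arrays.

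No other exchange factor was bright enough to test, in 11 probe sets for 5 of 6 genes. Rasgrp4, an exchange factor known from mast cells, read 38.4 and 74.1 on the Pac1-/- arrays, against 18.6 and 118 on the wild-type arrays. Among other RasGAPs, Rasa3 was tested, at 667 and 734 on the Pac1-/- arrays, against 413 and 547 on the wild-type arrays (0.56 ± 0.38, limma adjusted p = 0.866). The genotypes of Rasa3 did not overlap, with Pac1-/- higher, as in the tested Rasa1 probe sets and 24.3% of all tested probe sets. Those of Rasa2 and of the dim Rasa1 probe set overlapped.

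Dok3, a further Dok gene, read 229 and 90.7 on the Pac1-/- arrays, against 254 and 189 on the wild-type arrays. Its difference of -0.60 ± 0.62 turned to 0.065 without Pac1-/- replicate 2. Both Spry4 probe sets read below 10 on all 4 arrays. Of 5 tested probe sets listed as adaptors of Sos, 1 was higher, that of Ptpn11, and 4 were lower, among them both of Grb2. Over all tested probe sets 52.8% were higher. Lat, the membrane adaptor downstream of FceRI, read 1003 and 1002.5 on the Pac1-/- arrays, against 1293 and 1806 on the wild-type arrays. Its difference was -0.61 ± 0.38, and 0.18 with median centring, where the median over all tested probe sets was 0.69. Of 4 tested probe sets for Raf kinases and their partners, 3 were higher, with the Raf inhibitor Pebp1 at 2577 and 2737 on the Pac1-/- arrays, against 1740 and 1893 on the wild-type arrays (0.55 ± 0.34, limma adjusted p = 0.866).

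**Figure D4:**
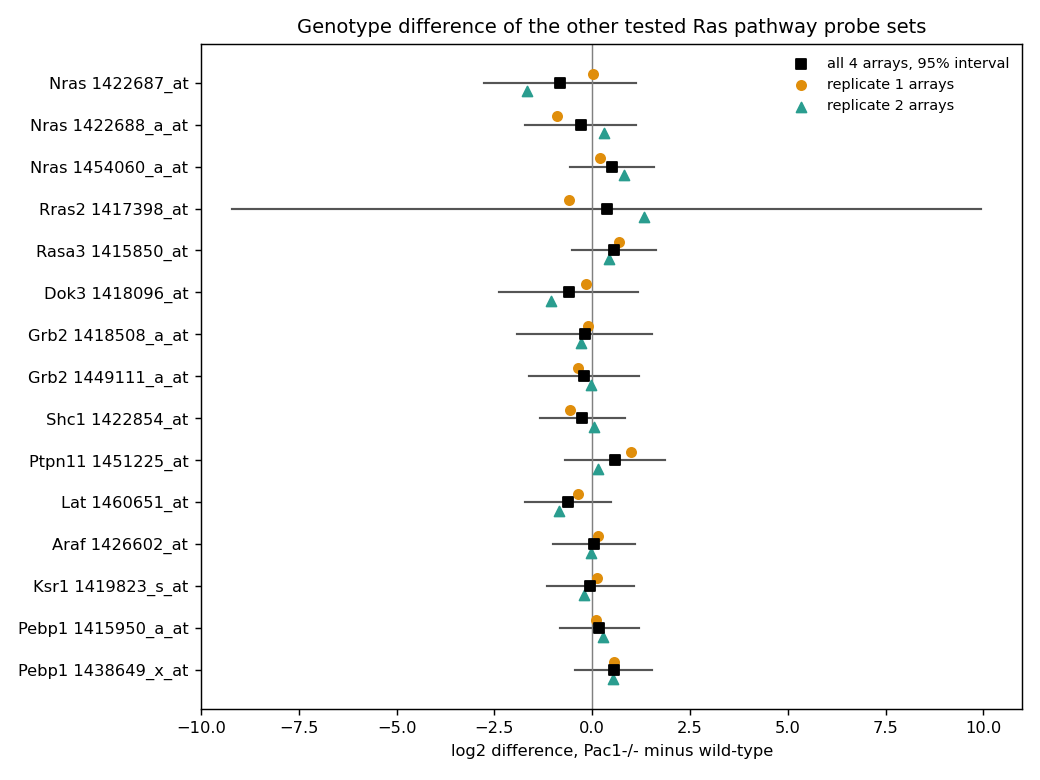
Log2 difference, Pac1-/- minus wild-type, of the 15 tested probe sets of the other Ras pathway genes. Squares are the fit over all 4 arrays with its 95% confidence interval, circles the replicate 1 arrays and triangles the replicate 2 arrays. Every interval includes 0, and that of Rras2 is the widest, from -9.20 to 9.94.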

How the data were processed

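The submitters' processing notes name MAS5, and the deposited table holds 1 linear intensity per probe set and array. The series' design text describes RMA and limma instead; RMA values were not used here. Of 22690 probe sets, 64 controls were left out. Linear values were quantile normalised over the 4 arrays and log2 was taken after values under 16 had been raised to 16. A two-sided limma 3.58.1 fit (R 4.3.3) with genotype alone, followed by eBayes and Benjamini-Hochberg adjustment, covered the 7770 probe sets that averaged at least 100; it had 2 residual and 1.71 prior degrees of freedom, and the number of arrays limits the precision. The design text calls the cultures independent. The limma fit was tested on simulated data, where recovery of changed probe sets was required only at a spread well below that of these arrays. This does not show how large a difference 2 arrays per genotype can detect. Figures used matplotlib 3.10.9.

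The members, lists, motifs and tests were chosen with earlier results of these data known. Named were all members, Dusp2, the tested probe set with the lowest p per role of the pathway list, and the 3 nearest to the member with the lowest p; further Nras and Rras2 probe sets, Rasgrp4, Spry4, Eif2s3y, Xist and single cell type markers were added after their values were seen. Alternatives were other scalings, minima, floors, an intensity trend, a replicate block, leaving out each array and averaging the probe sets of a gene.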

Additional observations from a re-analysis of the deposited data

How the results depend on the processing

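No probe set, member or other Ras pathway gene passed the adjusted limma test under any alternative. At the unadjusted level the count over all tested probe sets was 263, and it was 1762 with no intensity minimum, 110 with a minimum of 200, 899 with the replicate block, 100 with probe sets averaged per gene, and between 79 and 408 with 1 array left out; with no minimum and with averaging the number of features tested also changes. The member count of 1 became 2 on the values as deposited and 0 with a minimum of 200, where Sos2 was not tested, and lay between 0 and 1 with 1 array left out. The count of 0 for the other Ras pathway became 4 with no minimum and lay between 0 and 1 with 1 array left out. The sign turned for both tested Rasa1 probe sets (-0.034) and Spred1 1423160_at (-0.047) with probe sets averaged, for Rasa2 (-0.013) and Spry1 (-0.26) as deposited, and for Spred1 1423161_s_at (0.13), Spred2 (0.54) and Lat (0.18) with median centring. With 1 array left out, ranges were -1.09 to 1.95 for Rasa2, -1.68 to 1.71 for Spry1, -1.79 to 2.81 for Spry2, -0.40 to 1.09 for Spred1 1423160_at, -2.69 to 1.93 for Spred1 1423161_s_at, -0.57 to 0.41 for Spred2, -0.88 to 0.0030 for Dusp2 and -1.27 to 0.065 for Dok3. The lone array of a genotype is then assumed to vary like the other genotype. With median centring the median difference over all tested probe sets was 0.69, against 0.06 with quantile normalisation. Beyond this shift, the cause of these changes was not tested. Sos2 and Dok2 kept their sign under every alternative in which they were tested. Dok2 was not tested with a minimum of 200 or with median centring, and Sos2 was not tested with that minimum. Dok1 stayed negative but came near 0, at -0.078 with median centring and -0.14 without wild-type replicate 2, against -0.40. Samples share only a replicate number in the labels; deviations of same-numbered arrays correlated at 0.751 across tested probe sets, which are not independent. With the replicate block Sos2 had a limma unadjusted p of 0.0124 and an adjusted p of 0.377, and the block changed no call of a member.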
